A study of Homo sapiens with 4 samples.

Results

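RBM10, EBNA1BP2, ITPKC, C1orf43 and HNRNPH2 are the 5 genes described here. They were chosen by the measured score and position of their m6A peaks, because they hold 5 of the 6 peaks that rank 1 to 3 by numeric score, within their own list, among the peaks with no partner in the other of 2 peak lists. The lists come from MeRIP-seq of RWPE1 cells, an immortalized line of human prostate epithelium, in which RNA fragments pulled down with an antibody against m6A (IP) are set against the input RNA. The shFTO cells were infected with lentivirus carrying 1 shRNA against FTO, the control (shCtrl) cells with the vector control, and each condition had 1 IP library and 1 input library. All peaks on the strand of a gene that overlapped its locus were taken, which gave 10 of the 20410 listed peaks, namely 7 of 10087 shCtrl peaks and 3 of 10323 shFTO peaks. With 1 library pair per condition there is no replicate check on any difference, and no test was made. The lists hold no read counts or expression levels, so the depth behind a peak is unknown, and neither the knockdown of FTO nor the epithelial markers of the cells could be checked in them.

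FTO takes a methyl group off adenosine in RNA, and the mark it erases, m6A, affects how an mRNA is spliced, translated and degraded. Along a typical transcript the mark is densest around the stop codon and in long exons towards the 3′ end. RBM10 and HNRNPH2 are RNA-binding proteins that regulate splicing, and HNRNPH2 binds G-rich RNA. EBNA1BP2 is a nucleolar protein of 60S ribosomal subunit assembly, and ITPKC phosphorylates inositol trisphosphate, a messenger that releases calcium. C1orf43 is a broadly expressed gene whose product is less well characterised.

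Loci were used as given in kb on hg19, the build named in the submitters' processing notes. They were 43 kb for RBM10, 9 kb for EBNA1BP2, 24 kb for ITPKC, 15 kb for C1orf43 and 7 kb for HNRNPH2. The RefSeq genes of GRCh38.p14 were of similar size, at 41593 bp, 8397 bp, 23749 bp, 13871 bp and 5912 bp in the same order, and lay on the same strands. C1orf43 was matched there as a former symbol of LTAP1 and the other 4 genes by symbol. No exon or UTR table of hg19 was used here, so positions are given within the locus and not by exon.

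RBM10 had 2 shCtrl peaks and 1 shFTO peak, and none of the 3 overlapped. The shFTO peak, at chrX:47045873-47046214 on the plus strand, was 342 bp wide and had a score of 3233.06, the highest value of its list. It ended 786 bp before the 3′ bound of the locus. The shCtrl peaks lay further upstream, at chrX:47030427-47030657 with a score of 311.48 and at chrX:47035899-47035985 with a score of 52.19. The second of these was close to the lower limit of its list, where scores began at 50.03. The shFTO peak was 9887 bp from the nearest shCtrl peak.

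EBNA1BP2 had 1 peak in each list, again at different places. The shFTO peak, at chr1:43629928-43630164 on the minus strand, was 237 bp wide with a score of 3215.82. The shCtrl peak, at chr1:43632497-43632590, was 94 bp wide with a score of 373.44 and lay 2332 bp upstream along the gene. Thus RBM10 and EBNA1BP2, which were chosen from the shFTO list, were also marked in the shCtrl list, but not at the same position.

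ITPKC showed the opposite arrangement. In the shCtrl list it carried a peak of 1504 bp at chr19:41245262-41246765 on the plus strand, with a score of 3228.29, the highest of that list. A narrower shCtrl peak of 205 bp lay at chr19:41239065-41239269 with a score of 406.58. The only shFTO peak in the locus, at chr19:41242891-41242992, fell between these and had a score of 56.04. It was 2269 bp from the wide shCtrl peak and 3621 bp from the narrow one.

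C1orf43 and HNRNPH2 had 1 peak each in the shCtrl list and none on their strand in the shFTO list. The C1orf43 peak, at chr1:154179242-154180124 on the minus strand, was 883 bp wide with a score of 3226.07. The HNRNPH2 peak, at chrX:100666924-100668436 on the plus strand, was 1513 bp wide with a score of 3216.83 and covered 21.6% of its locus. The nearest shFTO peak on the strand of the gene was 221984 bp away for C1orf43 and 16148 bp away for HNRNPH2. In RefSeq the readthrough gene RPL36A-HNRNPH2 overlaps HNRNPH2 on the same strand, so this peak cannot be given to HNRNPH2 alone.

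**Figure D1:**
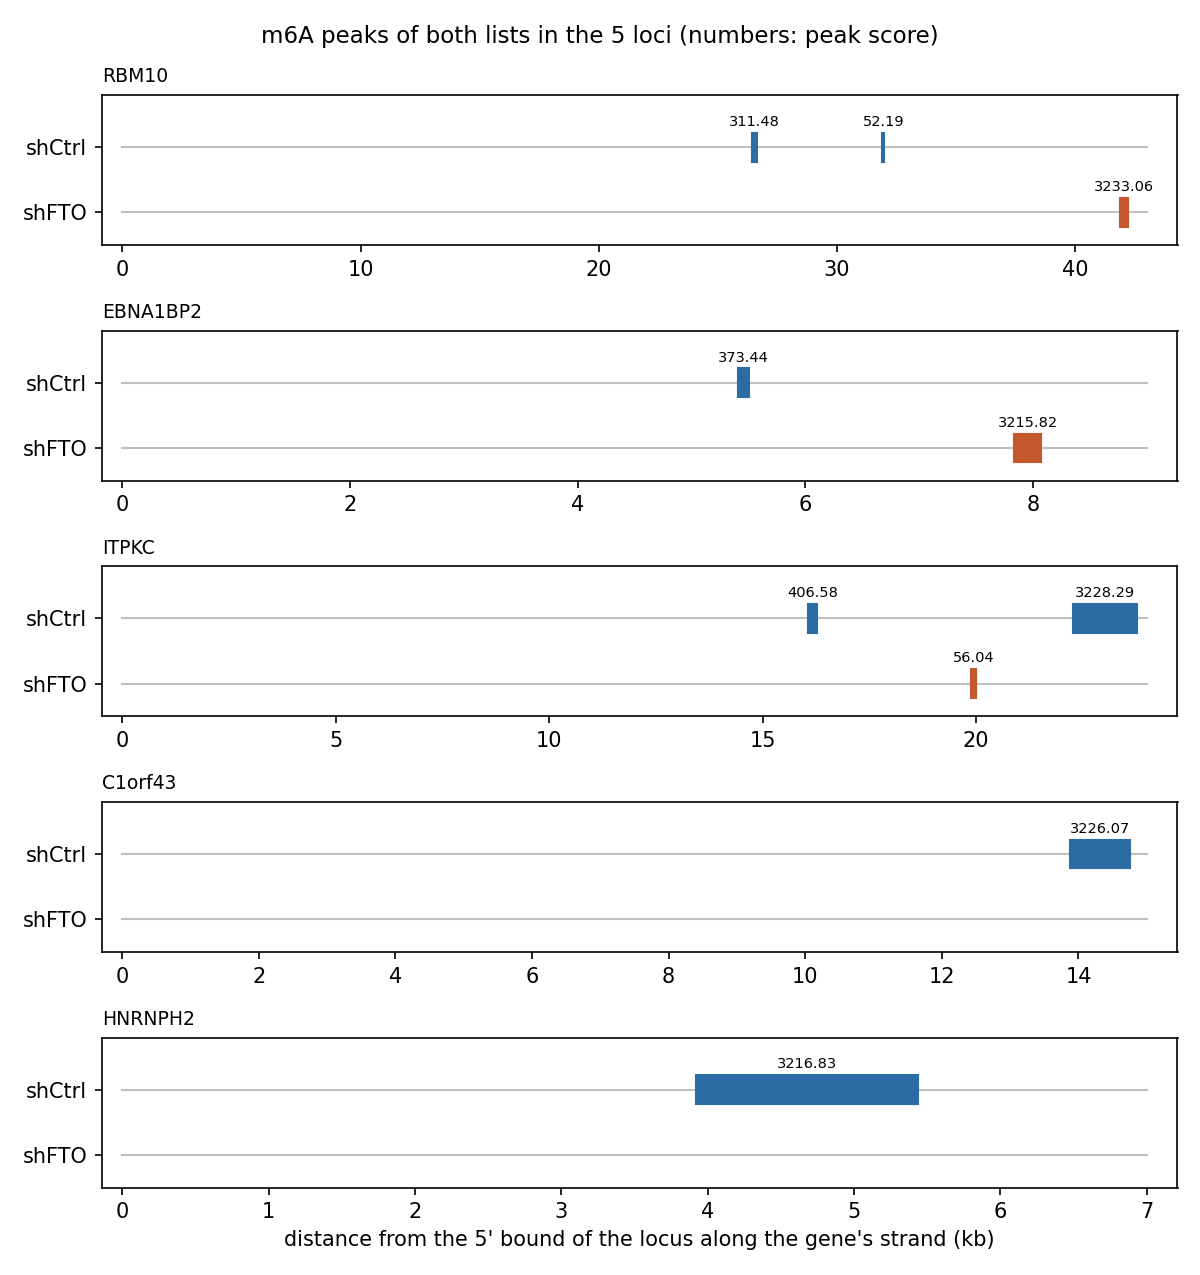
m6A peaks of the shCtrl (blue) and shFTO (orange) lists in the 5 loci, drawn to scale along each gene from its 5′ bound on the left (x axis, kb), with the score of each peak above it. None of the 10 peaks overlaps a peak of the other list, and the midpoints of all 10 lie at 60.6% or more of the way from the 5′ to the 3′ bound.

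All 10 peaks were without a partner, a partner being a peak of the other list that overlaps by at least 1 bp on either strand. This count cannot be read as a property of the genes, since peaks without a partner decided the choice, and 79.8% of all shCtrl peaks and 80.4% of all shFTO peaks had none either. Among peaks with a score of 3100 or more, 73.3% of 427 shCtrl peaks and 77.3% of 639 shFTO peaks had none. The other 5 peaks, which the choice did not rest on, had scores from 52.19 to 406.58. They reached at most the percentile 72.7 of the scores of their own list, and the lowest was at the percentile 1.04.

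The position of the peaks within the gene was not part of the choice. The midpoints of the 10 peaks lay between 60.6% and 97.8% of the way from the 5′ to the 3′ bound, with a median of 78.7%. For the 5 chosen peaks the median was 95.5%, with 97.8% in RBM10, 95.9% in ITPKC, 95.5% in C1orf43, 88.4% in EBNA1BP2 and 66.8% in HNRNPH2. For the other 5 it was 67.4%, with a range from 60.6% to 83.1%. These shares depend on loci rounded to 1 kb, which matters most in the short locus of HNRNPH2, where the peak ended 1564 bp before the 3′ bound. They count introns as well as exons. The same shares were not computed for other genes, so a place towards the 3′ bound is not shown to be particular to these genes.

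The 3 chosen shCtrl peaks were wide for their list, at the width percentiles 95.4 (HNRNPH2), 95.3 (ITPKC) and 88.1 (C1orf43) against a list median of 212 bp. The 2 chosen shFTO peaks were not, at the percentiles 59.7 (RBM10) and 49.3 (EBNA1BP2) against a list median of 242 bp. Peaks with scores above 3100 were themselves wide, with medians of 780 bp in shCtrl and 727 bp in shFTO cells. Set against these medians, which include the chosen peaks, the C1orf43 peak of 883 bp was near the 780 bp of shCtrl cells. The peaks of ITPKC and HNRNPH2 were wider, and those of RBM10 (342 bp) and EBNA1BP2 (237 bp) were narrower than the medians of their conditions. The other 5 peaks had widths from 87 to 231 bp. Over the 5 loci the shCtrl peaks covered 4517 bp and the shFTO peaks 681 bp. Most of either length was the 3 chosen shCtrl peaks (1504, 883 and 1513 bp) or the 2 chosen shFTO peaks (342 and 237 bp). The difference thus lies mainly in the widths of the peaks that decided the choice, and cannot be read as a property of the genes.

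The highest scores were then examined, because they chose the genes. Read as the negative log10 of a P value multiplied by 10, a score of 3233.06 is that of the smallest number above 0 that double-precision arithmetic can hold. The scores of the 5 chosen peaks fell, to within 0.006, on whole multiples of this number, at 1 for RBM10, 3 for ITPKC, 5 for C1orf43, 42 for HNRNPH2 and 53 for EBNA1BP2. Of all scores above 3200, 9 lay where neighbouring multiples are, after rounding, at least 0.05 apart, and all 9 fell on a multiple. The 5 chosen peaks thus sat at the end of the range that can be computed, where scores move in steps. The step from RBM10 to the next possible score was 3.01 and that from C1orf43 was 0.79. A P value below this range would be stored as 0 and has no logarithm.

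A score of exactly 3100 was far more frequent than its surroundings. It was carried by 1017 peaks of both lists, of which 767 had no partner, while 22 peaks lay within 50 below it and 17 within 50 above it. What 3100 stands for is not given in the sources used here, so it is not known whether these peaks rank below or above the 5 chosen ones. For this reason RBM10, EBNA1BP2, ITPKC, C1orf43 and HNRNPH2 are described as genes under peaks of very high numeric score and not as those under the strongest peaks. The median width of the peaks at exactly 3100 was 823.5 bp among shCtrl peaks and 860 bp among shFTO peaks.

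**Figure D2:**
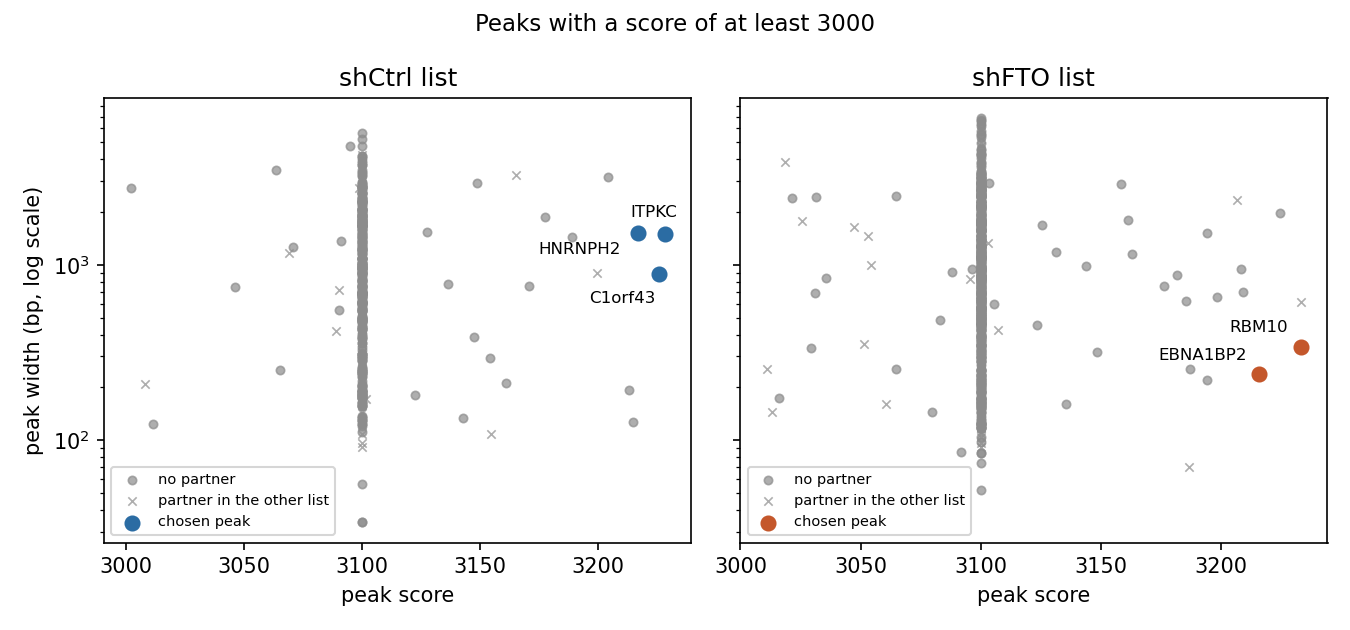
Width (y axis, bp, log scale) against score (x axis) of all peaks with a score of at least 3000, for the shCtrl list on the left and the shFTO list on the right. Each grey point is 1 peak without a partner, each cross 1 peak with one, and the coloured points are the 5 chosen peaks, which lie at the right end between 3215.82 and 3233.06, while 1017 peaks stand in the columns at 3100.

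The chosen peaks were not set apart from the next ones by a gap. In the shCtrl list, ITPKC, C1orf43 and HNRNPH2 held the ranks 1, 2 and 3 among the peaks without a partner, and the next were at chr16:29857479-29857605 with a score of 3214.80, chr10:13151097-13151288 with 3213.33 and chr15:86122161-86125338 with 3204.24. In the shFTO list, RBM10 and EBNA1BP2 held the ranks 1 and 3, and a peak at chr1:51433608-51435571 with a score of 3224.61, which lies in none of the 5 loci, stood between them. The next shFTO peaks were at chr12:33030780-33031477 with 3209.17, chr10:15145304-15146253 with 3208.01 and chr15:43888606-43889261 with 3198.28. The value of RBM10 was also carried by a second shFTO peak, at chr10:103558599-103559212, which had a partner in the shCtrl list.

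The lists hold part of the peaks that were numbered, so the numbers in the peak names were used to see what lay between the listed peaks. In both lists the numbers rose with position without exception. A step of more than 1 between neighbouring listed peaks therefore counts numbered peaks that were not listed, and their positions and scores are not known. At the place of each chosen peak, the other list had such unlisted peaks between the listed peaks on either side. There were 12 shCtrl peaks in 32.9 kb around the RBM10 peak, 18 shCtrl peaks in 224 kb around the EBNA1BP2 peak, 14 shFTO peaks in 27.9 kb around the ITPKC peak, 16 shFTO peaks in 229 kb around the C1orf43 peak and 4 shFTO peaks in 157 kb around the HNRNPH2 peak. This is the usual state of these lists, since the same held for 99.8% of the shCtrl-only and 99.9% of the shFTO-only peaks, with a median of 24 unlisted peaks for either. The stretches are far wider than the peaks, so the unlisted peaks do not tell whether a peak was called at the same place. Both lists are labelled as m6A of mRNA, and whether the unlisted peaks lay outside mRNA was not tested. A peak missing from a list was not shown to be missing from the cells of that condition.

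The closest bracket was found in ITPKC. The shCtrl peaks numbered 81698 and 81700 in this gene left exactly 1 unlisted shCtrl peak in the 5.99 kb between them, the stretch that also held the only shFTO peak of ITPKC. Whether the unlisted peak overlapped the shFTO peak cannot be seen from the lists. In RBM10, 2 unlisted shCtrl peaks lay between the listed ones, numbered 170527 and 170530.

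Peaks shared by both lists allowed the numbering to be compared over the same stretch of the genome. Only pairs in which neither peak overlapped a further peak of the other list were used. The nearest such pair at either end of each locus was taken, and the left pair of RBM10 reached into its locus. All 10 of these pairs had at least 1 edge at the identical base in both lists. Between the shared peaks around RBM10, over 64.4 kb, 21 peaks were numbered in shCtrl cells and 19 in shFTO cells, of which 2 were listed in each. Around ITPKC, over 138 kb, 50 were numbered in shCtrl and 47 in shFTO cells, with 4 and 2 listed. Around both genes slightly more peaks were numbered in shCtrl than in shFTO cells, whichever list held the peak with the high score. The same held over the whole lists, where the numbers ran to 173974 in shCtrl and 161598 in shFTO cells.

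The stretches around the other 3 genes were longer. Around C1orf43, over 408 kb, the order was reversed, as 64 peaks were numbered in shCtrl cells and 70 in shFTO cells, with 2 and 3 listed. Around EBNA1BP2 it was 121 and 101 over 679 kb, with 4 and 8 listed, and around HNRNPH2 119 and 100 over 2780 kb, with 8 and 4 listed. Summed over the 5 stretches, 20 of 375 numbered shCtrl peaks (5.33%) and 19 of 337 numbered shFTO peaks (5.64%) were listed. Over the whole lists these shares were 5.8% and 6.39%.

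**Figure D3:**
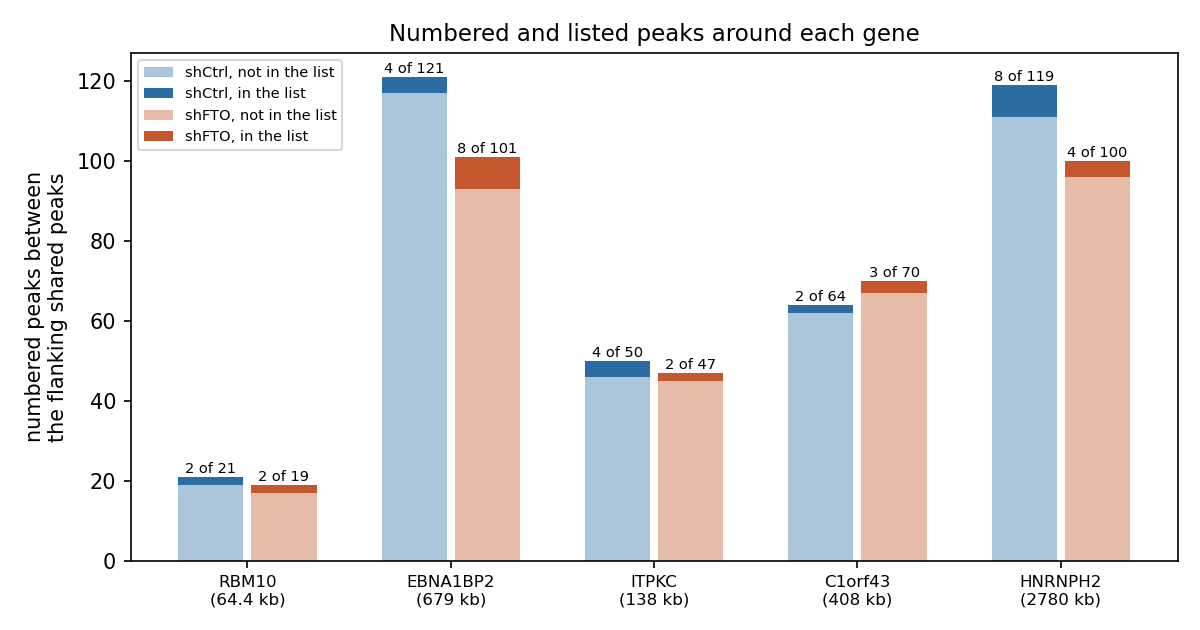
Numbered peaks (y axis, count) between the shared peaks that flank each gene, in shCtrl (blue) and shFTO (orange) cells, with the listed peaks in the dark part of each bar and the unlisted ones in the light part. The length of each stretch is given under the gene. The listed peaks are 2 to 8 of 19 to 121 numbered ones.

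**Figure D4:**
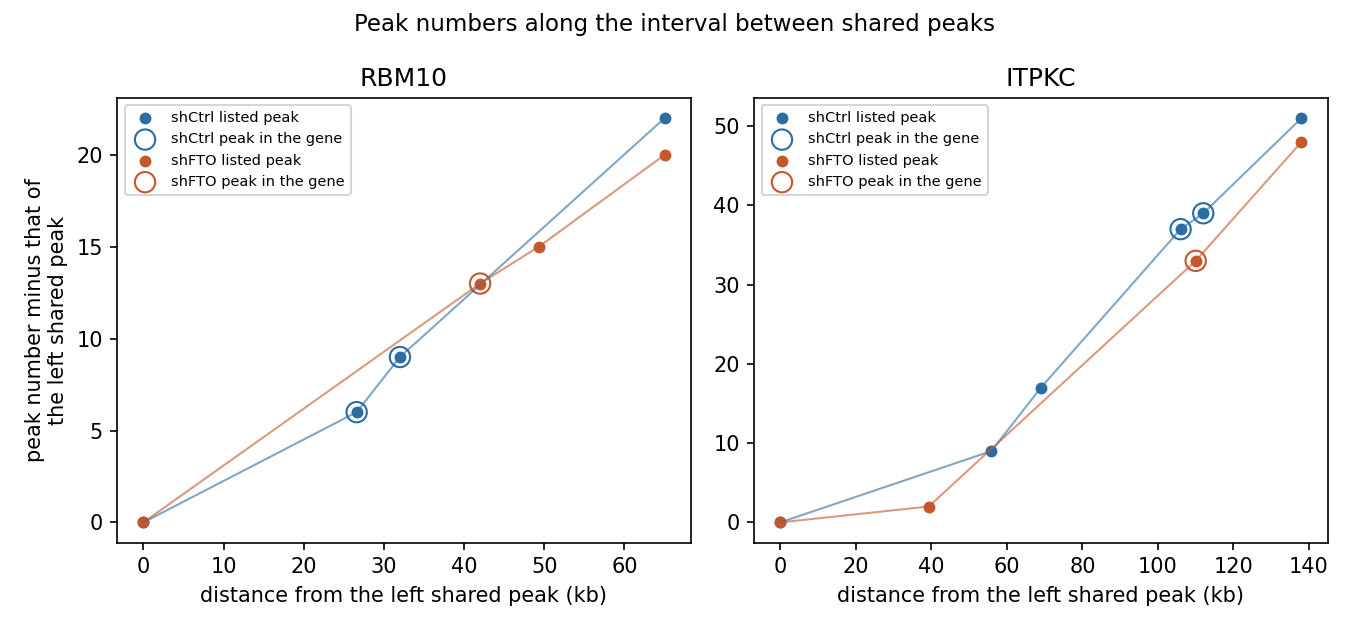
Peak number, counted from the shared peak on the left (y axis), against the distance from that peak (x axis, kb) around RBM10 and ITPKC. Points are listed peaks of shCtrl (blue) and shFTO (orange) cells and circles mark those in the gene. The lists end at 22 and 20 steps around RBM10 and at 51 and 48 around ITPKC.

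The shared peaks lay at different distances from the genes, as the lengths of the stretches show, and 3 of them are given here. The shared peak at the left bound of RBM10, on the minus strand, started at position 47003872 in both lists and had scores of 1416.83 in shCtrl and 621.91 in shFTO cells. A shared peak next to C1orf43, at chr1:154197558-154197689, had the same start and end in both lists. The shared peak nearest to HNRNPH2, upstream on the same strand, started at 100650323 in both lists, with a score of exactly 3100 in the shFTO list. Scores of different lists are given side by side and were not compared, because the depth behind each is unknown.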

How the data were processed

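RNA of RWPE1 cells was immunoprecipitated with an m6A antibody, and directional libraries of IP and input RNA were sequenced as paired-end reads. The submitters' processing notes name cutadapt 1.9.3, HISAT2 and hg19. The authors deposited 1 peak list per condition, with position, strand, name and score of each peak. The names are in the form MACS writes, and the caller's release, its settings and the rule that selected the listed peaks are not given in the sources used here. The deposited score was taken as 10 times the negative log10 of P, and was ranked only within a list, while both lists were counted together to find the form of the highest scores. Depth is unknown, and no test was made with 1 library pair per condition.

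Overlaps, distances and peak numbers were computed in Python 3.11.15 with pandas 2.3.3 and numpy 2.4.6. The main partner rule and the pairing of shared peaks were tested on simulated lists, and the other steps were not. In these lists all peaks lay on the same strand and shared peaks had identical edges. Partial overlaps, opposite strands and peaks with several partners were therefore not tested. Gene sizes, symbols and neighbours were taken from RefSeq (GRCh38.p14), without its coordinates. Positions are 1-based, on hg19. Sequences of the peaks were not read, as no genome of this build was used. Named items are the 5 genes with all their peaks and the next 3 peaks without a partner in each list. The shFTO peak that ranks between RBM10 and EBNA1BP2 and the peak that ties with RBM10 were added after their values were seen. The genes and the comparisons were chosen with earlier results of these data known. Related genes and epithelial markers were not analysed here, since no hg19 gene table was used. Alternatives to the overlap, the strand, the locus bounds and the score minimum were tried.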

Additional observations from a re-analysis of the deposited data

How the results depend on the processing

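Of the 26 recomputations for RBM10, EBNA1BP2, ITPKC, C1orf43 and HNRNPH2, 6 only tighten the partner rule and could not change a count. Of the other 20, 1 changed a count by more than 1.5 times. Those that looked for a partner within 100 or 1000 bp were settled by the distances and add no support. Each of the 10 peaks lay at least 2269 bp from the nearest peak of the other list. With peaks on either strand the shFTO list had 5 peaks in the loci, against 3 on the strand of the gene, and the shCtrl list had 8 against 7. The other settings (a peak wholly inside the locus, loci widened by 1 kb, partners within 100 bp, merged peaks, scores at or above the list median) gave 6 or 7 shCtrl and 2 or 3 shFTO peaks. No chosen peak had a partner within 1000 bp. Asking for an identical edge in the flanking shared peaks, a setting chosen after seeing the data, could not change their choice, since all 10 had one. No paired analysis was possible because there was 1 library pair per condition. What a missing peak shows is limited by the unknown depth and the unlisted peaks.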

Other observations

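Peaks on the strand opposite to the gene were listed in 2 of the 5 loci. At the 5′ bound of RBM10 a minus-strand peak was listed in both conditions, 522 bp wide in shCtrl and 301 bp wide in shFTO cells, with the same start. In RefSeq NDUFB11, which encodes a subunit of mitochondrial complex I, overlaps RBM10 on the minus strand. In the locus of C1orf43 a plus-strand peak of 98 bp, at chr1:154193419-154193516 with a score of 337.83, was listed in shFTO cells and had no partner. UBAP2L, which encodes a ubiquitin-associated protein, overlaps C1orf43 on the plus strand in RefSeq. These positions were not matched to either gene on hg19.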
